A study of Mus musculus with 4 samples.

Results

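The brain renin-angiotensin system was followed here as 9 genes, chosen by their names as known parts of that system. The rule uses no measured value, though it was set with earlier results of these data known. All 9 had a row in the joined gene tables, which listed 33981 genes. Male C57BL/6J mice of 3 to 5 months carried a subcutaneous minipump for 28 days, which delivered saline in the normotensive (NT) groups. In the hypertensive (HT) groups it delivered angiotensin II, at a daily dose of 0.28 mg per kg. At day 7 the mice had sham surgery or a photothrombotic stroke of the prefrontal cortex, in which a light-activated dye closes cortical vessels. The groups were NT + Sham, HT + Sham, NT + Stroke and HT + Stroke, each with 6 numbered sequencing libraries of poly(A) mRNA from a coronal brain section that held the prefrontal cortex, taken at day 28 after the blood was flushed out. The labels name no transgene or targeted allele in any group. The labels give no batch, and nothing states that the libraries of a group came from separate mice, so *P* values measure the spread between libraries.

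The renin-angiotensin system cuts a secreted precursor, angiotensinogen, into small peptides. Renin releases angiotensin I, angiotensin-converting enzyme trims it to angiotensin II, and type 1 and type 2 receptors bind that product. Astrocytes are the main source of angiotensinogen within the brain, where the system is studied for its part in blood pressure, thirst and blood vessel function. The infusion supplied the end product from outside the brain, and the question put to these data was whether the local genes differed between infused and uninfused mice. Levels of mRNA do not report peptide, protein or enzyme activity, and in a bulk section fewer cells of a type and less RNA per cell cannot be told apart.

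The members fall into 3 roles. Agt encodes angiotensinogen, the substrate. Ren1 encodes renin and Ace encodes angiotensin-converting enzyme, the enzymes of the classical path. The receptors were Agtr1a and Agtr1b, which encode the paired mouse type 1 receptors, Agtr2, which encodes the type 2 receptor, and Mas1, whose product binds a shorter angiotensin peptide with actions opposed to those of the type 1 receptor. Lnpep encodes insulin-regulated aminopeptidase, a binding site of angiotensin IV. Atp6ap2 encodes the prorenin receptor, which is also an accessory subunit of the proton pump that acidifies vesicles.

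In GRCm38 coordinates, Agt (ENSMUSG00000031980) lies at chr8:124556534-124569706 on the minus strand and Ace (ENSMUSG00000020681) at chr11:105967945-105989964 on the plus strand. Mas1 (ENSMUSG00000068037) lies at chr17:12841079-12868143 on the minus strand and Atp6ap2 (ENSMUSG00000031007) at chrX:12587801-12617049 on the plus strand. These 4 genes passed the test together in NT + Stroke vs NT + Sham, described further on, and the 250 bases before each start site are printed for that reason. The sequences are from RefSeq for GRCm38.p6, given 5′ to 3′ on the strand of the gene, with motif matches in capitals. The motifs searched on both strands were the TATA box core TATAAA, the CCAAT box CCAAT, the GC box GGGCGG and the STAT-type palindrome TTCNNNGAA.
Agt, chr8:124569707-124569956, minus strand: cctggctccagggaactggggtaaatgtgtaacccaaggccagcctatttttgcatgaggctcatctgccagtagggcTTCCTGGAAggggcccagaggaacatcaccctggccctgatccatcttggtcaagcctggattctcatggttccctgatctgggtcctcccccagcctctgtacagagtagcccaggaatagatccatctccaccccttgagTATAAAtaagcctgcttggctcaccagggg
Ace, chr11:105967698-105967947, plus strand: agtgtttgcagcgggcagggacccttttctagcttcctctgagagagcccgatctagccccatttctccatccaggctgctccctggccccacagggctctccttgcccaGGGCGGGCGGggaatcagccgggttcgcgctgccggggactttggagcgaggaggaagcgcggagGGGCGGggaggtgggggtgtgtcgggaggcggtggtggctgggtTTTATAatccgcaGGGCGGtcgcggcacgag
Mas1, chr17:12868144-12868393, minus strand: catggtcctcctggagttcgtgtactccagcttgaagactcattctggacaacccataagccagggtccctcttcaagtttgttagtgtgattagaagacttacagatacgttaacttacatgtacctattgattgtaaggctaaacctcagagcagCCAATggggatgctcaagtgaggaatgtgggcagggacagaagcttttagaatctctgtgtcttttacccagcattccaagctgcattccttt
Atp6ap2, chrX:12587509-12587758, plus strand: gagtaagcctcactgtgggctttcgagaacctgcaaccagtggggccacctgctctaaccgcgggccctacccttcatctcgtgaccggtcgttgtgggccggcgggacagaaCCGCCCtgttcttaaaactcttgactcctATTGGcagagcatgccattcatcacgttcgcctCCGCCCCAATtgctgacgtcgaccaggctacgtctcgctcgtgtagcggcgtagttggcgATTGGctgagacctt

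The 4 windows held different letters. The Agt window held TATAAA 30 bases before the start and a TTCNNNGAA match 172 bases before it. The Ace window held TATAAA on the opposite strand, 31 bases before the start, and 4 GC boxes, of which the pair farthest from the start overlap. This window precedes the start at the 5′ end of the gene. RefSeq lists a second Ace start 7241 bases away, and counts per gene do not separate them. The Mas1 window held 1 CCAAT box, 93 bases before the start. The Atp6ap2 window held 3 CCAAT boxes and 2 GC boxes, with 1 box of each kind sharing a base. Among 32851 RefSeq windows of that length, 12.4% held TATAAA, 33.8% held CCAAT, 32.7% held GGGCGG and 7.02% held TTCNNNGAA. A match is a description of the letters only. The promoter table held 8 of the 9 members, and Agtr1a was not among them.

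Sequencing depth ranged from 15922919 to 24865998 counts assigned to genes per library, with a median of 18497215.5. The section was checked against marker genes of 13 cell types and regions, each list summarised as the mean of log2(CPM + 1) over its detected genes, where CPM is the count scaled to the size of the library. Cortical neuron markers were high in every library, from 6.73 to 7.71. Striatal markers, from 4.29 to 7.83, and olfactory bulb markers, from 2.93 to 6.75, were present too, so the sections held more than prefrontal cortex. Library 6 of HT + Sham had a microglia score of 5.87 and a meningeal fibroblast score of 5.08, each above the other 5 libraries of its group and just under the NT + Stroke range. Libraries 1 and 6 of HT + Stroke had microglia scores of 5.66 and 5.64 and meningeal fibroblast scores of 3.89 and 3.87. These scores lay above every NT + Sham library, within the HT + Sham range and below every NT + Stroke library. For microglia, library 6 of HT + Sham was the only sham library with a higher score. These 3 libraries were kept, and member values that moved by over 1.5 times without them are given both ways, a choice made after their scores were seen.

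The 9 members spanned a wide range of levels. On the FPKM scale, which divides counts by gene length and library size, the mean level over 24 libraries was 88.2 ± 8.10 (SD) for Atp6ap2, above 98.15% of genes. Mas1 followed at 7.36 ± 1.45, Agt at 6.37 ± 2.27, Lnpep at 4.21 ± 0.514 and Ace at 3.37 ± 0.815. The ranges of these 4 neighbours overlapped, so their order does not hold beyond the spread between libraries. The lowest Atp6ap2 level, 72.9 FPKM, was above the highest Mas1 level, 10.02 FPKM.

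The classical receptors and renin were near the limit of detection. Agtr1a had a mean level of 0.196 ± 0.0744 FPKM and Agtr2 of 0.130 ± 0.0675 FPKM, with overlapping ranges, and both lay below the lowest Ace library. Agtr1b had a mean of 0.0558 FPKM and 54 counts over all 24 libraries. Agtr1a and Agtr1b are close paralogs, and reads shared between them could be assigned to either or dropped, so their split is uncertain. Ren1, at chr1:133350510-133360325 on the plus strand, had 14 counts in all. It had a count in 10 of 24 libraries and never more than 3 in one. Renin mRNA was therefore at or under the detection floor of 3 counts in every library. Mas1 overlaps the noncoding gene Airn on the other strand, and Lnpep overlaps the gene model AC121795.2. Whether counting used strand was not stated, so reads from those overlaps cannot be told apart.

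**Figure D1:**
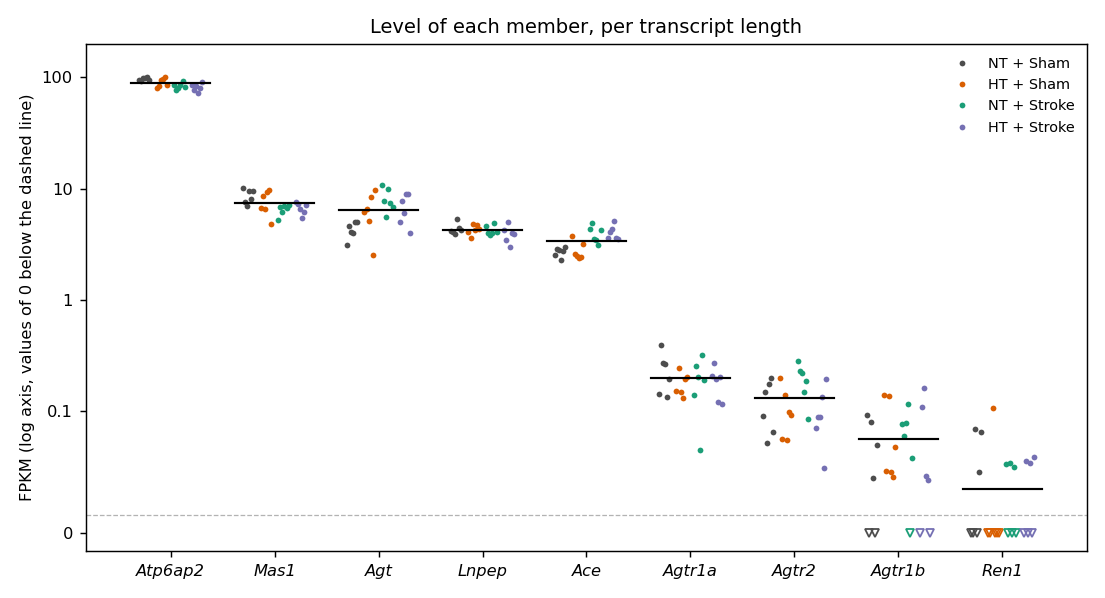
Level of each of the 9 members in FPKM on a log axis, with 1 point for each of the 24 libraries coloured by group, open triangles under the dashed line for libraries at 0, and a black line at the mean over 24 libraries. Atp6ap2 sits apart at a mean of 88.2 FPKM, Mas1, Agt, Lnpep and Ace lie together, and Agtr1a, Agtr2, Agtr1b and Ren1 lie below the lowest Ace library.

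Infusion of angiotensin II was first compared in mice without stroke, HT + Sham vs NT + Sham. No member and no other gene passed an adjusted *P* of 0.05. The 6 members tested, those with counts above the filter, gave 0 calls by edgeR, against 0% of 16581 genes, and DESeq2 also gave 0 over all genes. At an unadjusted *P* under 0.05 there was 1 member of 6, Agt, against 8.03% of all genes tested. The median absolute log2 fold change was 0.16 over the 6 members and 0.09 over all genes.

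Agt, the substrate, was spread unevenly in the infused sham mice. Its CPM ran from 5.89 through a median of 8.27 to 9.44 in NT + Sham. In HT + Sham it ran from 4.76 through 11.8 to 17.9. In 5 of the 6 infused libraries Agt was above every uninfused library, and in the sixth, library 5, it was below all of them. The log2 fold change was 0.56 (SE 0.24, 95% CI 0.03 to 1.08, n = 6 per group), with an unadjusted *P* of 0.0386 and an adjusted *P* of 0.598. Without library 5 of HT + Sham the value was 0.73, with an adjusted *P* of 0.0811, and over all libraries left out in turn the adjusted *P* ran from 0.0811 to 0.9999. Without the library that stood apart, HT + Sham 6, it was 0.40 with an unadjusted *P* of 0.0994.

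Olfactory bulb markers were compared over the same libraries. The score over Eomes, Cdhr1, Doc2g and Th, all 4 of them detected, had a median of 4.61 in NT + Sham, with a range of 3.74 to 5.01. It was 5.73 in HT + Sham, with a range of 4.65 to 6.75. None of the 4 genes passed the test between these groups. When that score was added to the fit as a covariate, a choice made after the data were seen, the Agt difference was −0.04 (95% CI −0.59 to 0.50). Because the score was higher in the infused group, the parts of score and infusion in the Agt value cannot be told apart. The cause was not tested. The same limit applies to the fits with this score in stroke mice and in the interaction. The astrocyte score, over 6 of 6 markers, had medians of 8.08 and 8.18.

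The other 5 members above the count filter gave smaller estimates in the same comparison. Ace ran from 12.1 through 14.8 to 15.89 CPM in NT + Sham and from 12.6 through 13.3 to 19.4 in HT + Sham, and the groups overlapped. Its means were 14.4 ± 1.38 and 14.6 ± 2.72 CPM (SD, n = 6), a log2 fold change of 0.02 (95% CI −0.22 to 0.26, adjusted *P* = 0.988). Mas1 ran from 18.6 through 23.0 to 26.5 CPM in NT + Sham and from 12.3 through 19.9 to 25.1 in HT + Sham, with 3 of 6 infused libraries below every uninfused one. The log2 fold change of Mas1 was −0.20 (95% CI −0.51 to 0.11, adjusted *P* = 0.801), and −0.09 without HT + Sham library 6, where that of Ace was −0.02.

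Lnpep and Atp6ap2, the members with the most counts, had the narrowest intervals. Lnpep differed by −0.04 (95% CI −0.20 to 0.13). Atp6ap2 ran from 242 through 254 to 264 CPM in NT + Sham and from 209 through 233 to 259 in HT + Sham, with 3 infused libraries below all uninfused ones. Its log2 fold change was −0.12 (95% CI −0.26 to 0.02, adjusted *P* = 0.717). Agtr1a, with 73 counts over NT + Sham and 52 over HT + Sham, differed by −0.38 with a wide interval of −1.05 to 0.28, so a change of that size was not detectable at this depth.

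**Figure D2:**
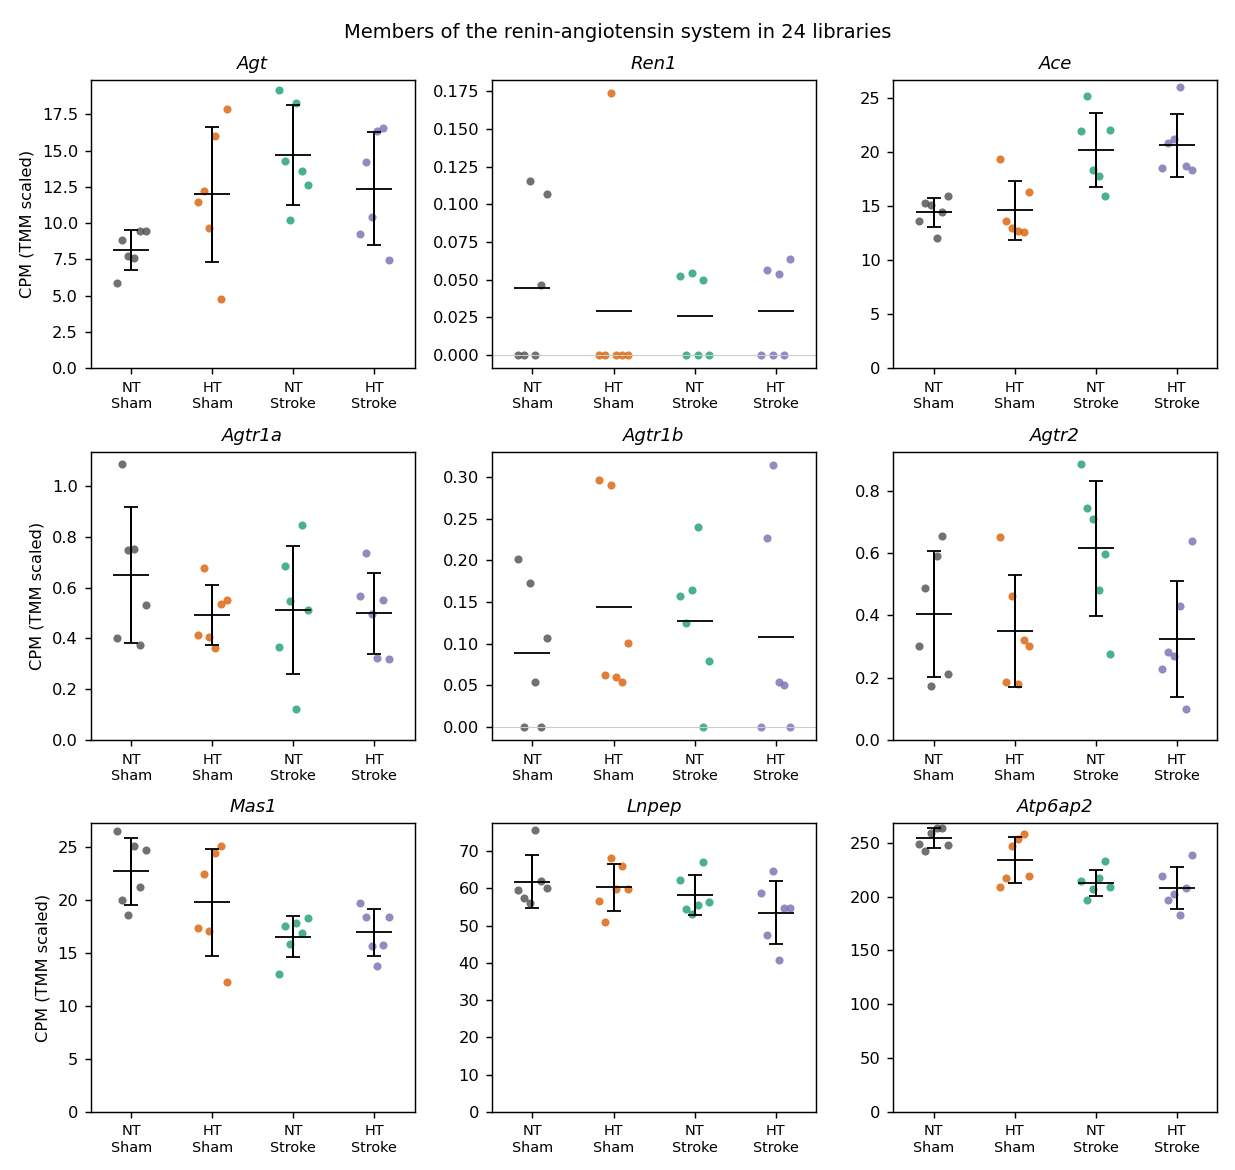
CPM of each member in each library, with 1 panel per gene, 1 point per library, the 4 groups along the horizontal axis, and bars at the mean ± SD (the mean alone for Ren1 and Agtr1b). In HT + Sham 5 points of Agt lie above every NT + Sham point and 1 lies below. The points of Agt, Ace, Mas1 and Atp6ap2 do not overlap between NT + Stroke and NT + Sham. The share of all genes without overlap was not counted.

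The same infusion was then compared in mice with stroke, HT + Stroke vs NT + Stroke. Again no member passed the test, with 0 of 6 called against 0% of 17008 genes by edgeR, and with 0 genes by DESeq2. At an unadjusted *P* under 0.05 the count was 0 of 6 members, against 7.23% of genes. The median absolute log2 fold change of the members was 0.03, below the 0.10 of all genes.

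In the stroke mice Agt ran from 10.2 through 13.9 to 19.2 CPM in NT + Stroke and from 7.46 through 12.3 to 16.6 in HT + Stroke, with the groups overlapping. The log2 fold change was −0.25 (95% CI −0.69 to 0.19, adjusted *P* = 0.715). Without HT + Stroke libraries 1 and 6 it was −0.04 (95% CI −0.42 to 0.35). The olfactory bulb score was lower here, with a median of 5.60 in NT + Stroke and 4.41 in HT + Stroke, and with the score as a covariate the Agt difference was 0.00116.

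The other members above the count filter were not called either. Ace had 20.2 ± 3.43 and 20.6 ± 2.91 CPM in NT + Stroke and HT + Stroke, a log2 fold change of 0.03 (95% CI −0.22 to 0.27). Mas1 had 16.6 ± 1.94 and 17.0 ± 2.23 CPM, a log2 fold change of 0.03 (95% CI −0.19 to 0.25). These intervals, for the enzyme that makes angiotensin II and a receptor of the counter-acting peptide, are as narrow as those in the sham mice. Lnpep differed by −0.12 (95% CI −0.33 to 0.09) and Atp6ap2 by −0.04 (95% CI −0.19 to 0.11). Agtr1a differed by −0.01 with an interval of −0.84 to 0.82. Without HT + Stroke libraries 1 and 6 the estimates were 0.10 for Ace, −0.07 for Mas1, −0.11 for Atp6ap2 and 0.05 for Agtr1a, with adjusted *P* of 0.854 or more.

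Agtr2, the type 2 receptor, fell under the count filter in both infusion comparisons and was compared by an exact permutation test of CPM over libraries. It had 73 counts over NT + Stroke and 35 over HT + Stroke. The CPM ran from 0.275 through 0.655 to 0.887 in NT + Stroke and from 0.1004 through 0.277 to 0.638 in HT + Stroke. No infused library was above the uninfused median and 3 of 6 were below every uninfused library. The means were 0.616 ± 0.217 and 0.325 ± 0.186 (SD, n = 6), with a two-sided exact permutation *P* of 0.0325, or 0.422 after adjustment over the 13 tests of this kind. The smallest exact permutation *P* this design allows is 0.002165. With each library left out in turn the exact permutation *P* ran from 0.0108 to 0.0693. DESeq2, over all its genes, gave a log2 fold change of −0.93 with an adjusted *P* of 0.993. In the sham mice Agtr2 had 47 counts without and 37 with infusion, with an exact permutation *P* of 0.623.

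Agtr1b and Ren1 allowed less. Agtr1b had 10, 15, 16 and 13 counts over NT + Sham, HT + Sham, NT + Stroke and HT + Stroke. Its exact permutation *P* was 0.383 for the infusion in sham mice and 0.747 in stroke mice. Ren1 had 5, 3, 3 and 3 counts over the same groups, and its exact permutation *P* in sham mice was 0.849. No test was made of Ren1 in stroke mice, where both groups were at the floor of 3 counts.

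Both infusion contrasts were next averaged over the surgeries, which uses all 24 libraries. Here 7 members were tested, including Agtr2, and 0 were called, against 0% of 17608 genes by edgeR and 0 genes by DESeq2. At an unadjusted *P* under 0.05 the count was 0 of 7, against 4.27% of all genes. Agtr2 had the largest estimate, −0.58 (SE 0.29, 95% CI −1.18 to 0.02, unadjusted *P* = 0.0573). The abundant members were bounded more closely, with Ace at 0.03 (95% CI −0.14 to 0.19), Lnpep at −0.08 (95% CI −0.21 to 0.06) and Atp6ap2 at −0.08 (95% CI −0.17 to 0.02). Mas1 was at −0.09 (95% CI −0.29 to 0.11) and Agt at 0.14 (95% CI −0.24 to 0.53). The smallest adjusted *P* among the 7 was 0.924. Without the 3 libraries that stood apart, edgeR still called 0 genes for the infusion in sham mice, in stroke mice and over both. Over both, Ace was then 0.04 and Atp6ap2 −0.11 (95% CI −0.20 to −0.01, adjusted *P* = 0.844).

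Whether the infusion acted differently with and without stroke was tested as an interaction. For the members 0 of 7 were called, against 0% of 17608 genes by edgeR, while DESeq2 called 22 genes, none of them a member. At an unadjusted *P* under 0.05 there was 1 member of 7, Agt, against 10.4% of all genes. The Agt interaction was −0.80 (SE 0.34, 95% CI −1.51 to −0.10), with an unadjusted *P* of 0.0269 and an adjusted *P* of 0.430. With the olfactory bulb score as a covariate it was −0.14 (unadjusted *P* = 0.679), and without the 3 libraries that stood apart it was −0.44 (unadjusted *P* = 0.181). Without those libraries the interactions of Ace (0.12), Lnpep (−0.13), Mas1 (0.03) and Atp6ap2 (−0.01) had adjusted *P* of 0.993 or more. With all 24 libraries kept, the Ace interaction was 0.01 (95% CI −0.33 to 0.35), with Lnpep at −0.08, Mas1 at 0.23 and Atp6ap2 at 0.09. The adjusted *P* of the 6 members other than Agt then ran from 0.684 to 0.990.

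**Figure D3:**
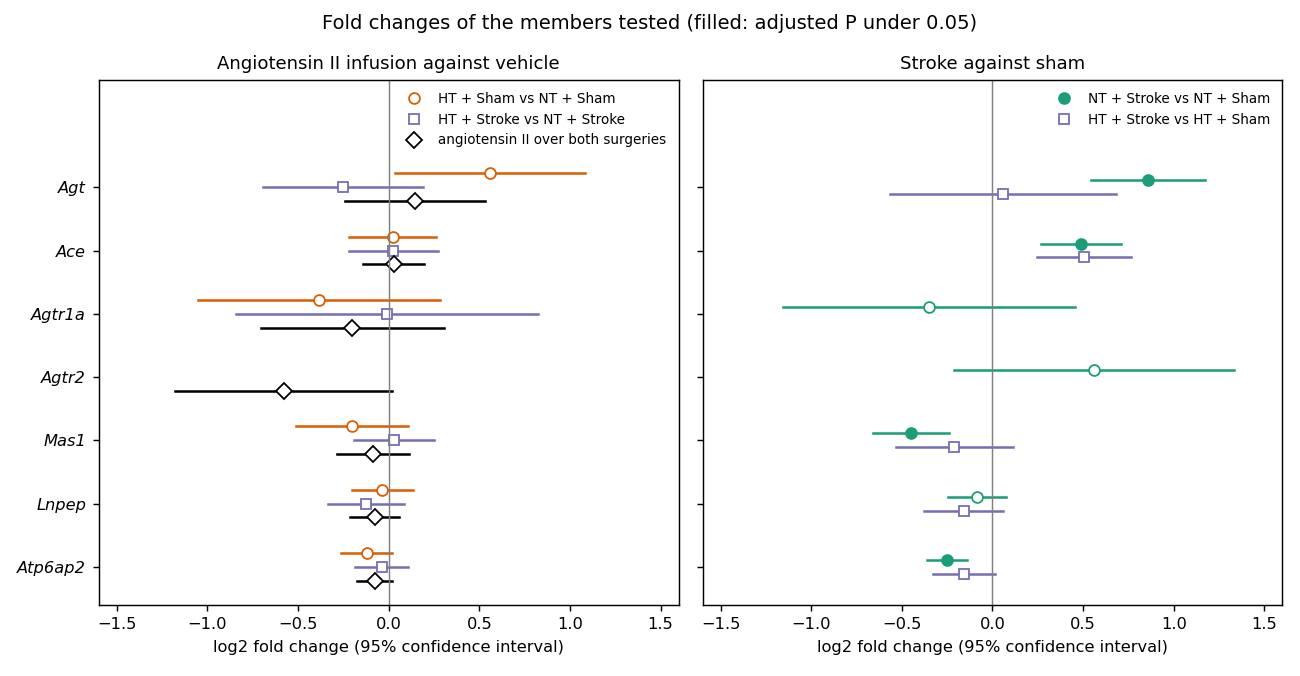
Log2 fold change of each tested member, with points at the edgeR estimate, bars at the 95% confidence interval and filled points where the adjusted P was under 0.05. One panel holds the infusion in sham mice, in stroke mice and over both surgeries. The other holds NT + Stroke vs NT + Sham and HT + Stroke vs HT + Sham. No point is filled in an infusion comparison or in HT + Stroke vs HT + Sham. Agt, Ace, Mas1 and Atp6ap2 are filled in NT + Stroke vs NT + Sham.

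The effect of stroke was compared first in uninfused mice. In NT + Stroke vs NT + Sham, Agt and Ace rose and Mas1 and Atp6ap2 fell, so 4 of the 7 members tested were called, against 25.9% of 16835 genes. The median absolute log2 fold change was 0.45 over the 7 members and 0.16 over all genes. The members that were not called were Agtr1a (−0.35, adjusted *P* = 0.554), Agtr2 (0.56, adjusted *P* = 0.295) and Lnpep (−0.08, adjusted *P* = 0.470).

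Agt rose 1.81-fold after stroke in uninfused mice. Its log2 fold change was 0.86 (SE 0.15, 95% CI 0.54 to 1.17, adjusted *P* = 0.000367), and every NT + Stroke library was above every NT + Sham library. Ace rose 1.41-fold, a log2 fold change of 0.49 (SE 0.11, adjusted *P* = 0.00187). Its CPM ran from 12.1 through 14.8 to 15.89 in NT + Sham and from 15.90 through 20.1 to 25.2 in NT + Stroke, so the groups met but did not overlap. With the olfactory bulb score as a covariate Agt rose by 0.52 (adjusted *P* = 0.0107), and the other 3 calls were kept. That score was itself higher after stroke, with a median of 5.60 in NT + Stroke and 4.61 in NT + Sham. The parts of score and stroke in these values therefore cannot be told apart.

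Mas1 and Atp6ap2 moved the other way. Mas1 ran from 18.6 through 23.0 to 26.5 CPM in NT + Sham and from 13 through 17.2 to 18.3 in NT + Stroke, without overlap. It fell by 0.45 on the log2 scale, with a log2 fold change of −0.45 (SE 0.10, adjusted *P* = 0.00260). Atp6ap2 ran from 197 through 212 to 233 CPM in NT + Stroke, below every NT + Sham library, with a log2 fold change of −0.25 (SE 0.05, adjusted *P* = 0.00163). Agt and Ace, the precursor and the converting enzyme, thus rose in the same libraries in which the Mas1 receptor and the prorenin receptor fell. The share of all genes without overlap between these groups was not counted. The lack of overlap in these members therefore has no background beside it.

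Markers of several cell types moved in the same comparison. Astrocyte markers rose for 4 of 6 genes, with the median score going from 8.08 in NT + Sham to 8.73 in NT + Stroke. Microglia markers rose for 4 of 5 genes, from 5.50 to 6.14, and meningeal fibroblast markers for 5 of 5, from 3.48 to 5.78. Cortical neuron markers fell for 4 of 4 genes, from 7.62 to 6.97. Olfactory bulb markers rose for 2 of 4 genes, septum markers for 3 of 4 and pericyte markers for 2 of 5. Endothelium markers rose for 1 of 5, smooth muscle markers for 1 of 3 tested, choroid plexus markers for 1 of 4 tested and mast cell markers for the 1 tested, while striatum (8 tested) and hippocampus (4 tested) markers gave 0 calls. The part of these shifts in the member values was not tested. In the infusion comparisons 0 genes of all 13 lists were called.

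**Figure D4:**
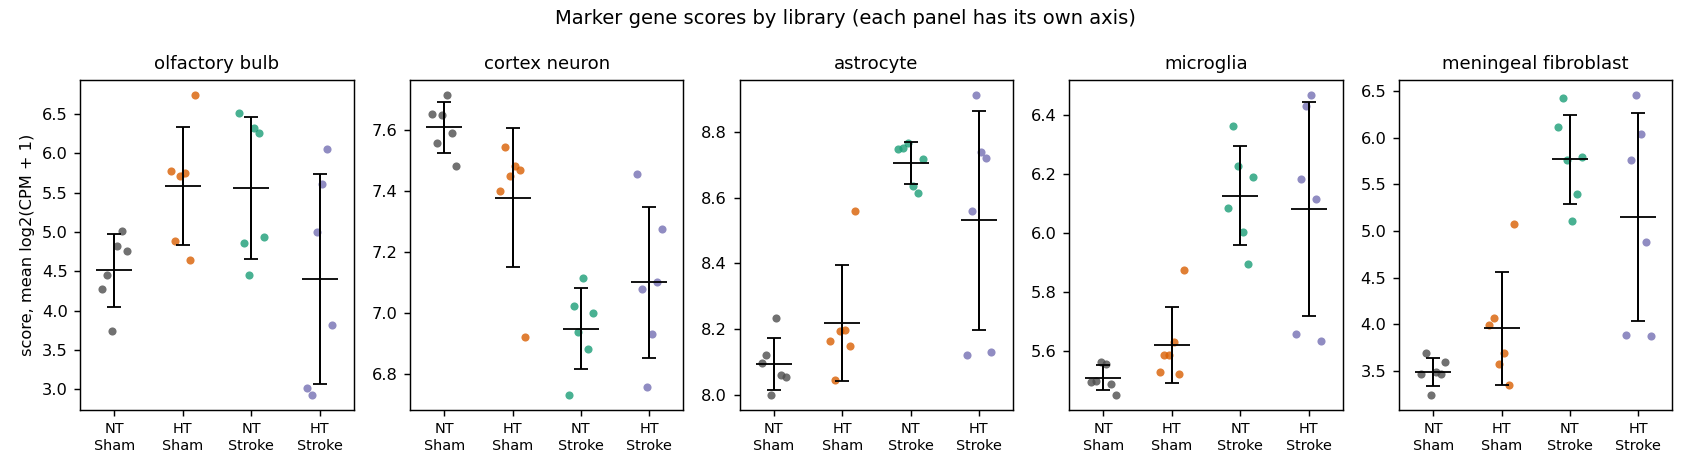
Scores of 5 marker lists, as the mean of log2(CPM + 1) over the genes of the list, in each of the 24 libraries by group, with bars at the mean ± SD. The olfactory bulb score is higher in HT + Sham and NT + Stroke than in NT + Sham and HT + Stroke by median, and the astrocyte, microglia and meningeal fibroblast scores are higher and the cortical neuron score lower in the stroke groups.

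The stroke contrast within infused mice, HT + Stroke vs HT + Sham, gave 0 called members of 5 tested, against 0.645% of 16741 genes. DESeq2 called 905 genes and 1 member, Ace. Ace had a log2 fold change of 0.51 (SE 0.12, 95% CI 0.25 to 0.77), with an adjusted *P* of 0.0673, beside 0.49 in uninfused mice. It ran from 12.6 through 13.3 to 19.4 CPM in HT + Sham and from 18.3 through 19.8 to 26.0 in HT + Stroke, with all 6 stroke libraries above the sham median and 3 of them above every sham library. Ace was also called without HT + Stroke library 1 (adjusted *P* = 0.0394) or library 6 (adjusted *P* = 0.0498). Without the 3 libraries that stood apart, Ace was called at 0.61 (adjusted *P* = 0.0156), and 1437 of 16956 genes were called. Those libraries were picked on marker scores that differ between stroke and sham, so values without them are not independent of the comparison. Agt differed by 0.06 (95% CI −0.57 to 0.68), Mas1 by −0.21 (adjusted *P* = 0.520), Lnpep by −0.16 (adjusted *P* = 0.459) and Atp6ap2 by −0.16 (adjusted *P* = 0.332). Without the 3 libraries Agt was 0.42 (adjusted *P* = 0.401), Mas1 −0.42 (adjusted *P* = 0.0819) and Atp6ap2 −0.26 (adjusted *P* = 0.118). With the olfactory bulb score Agt was 0.40 (adjusted *P* = 0.501) and Mas1 −0.43 (adjusted *P* = 0.0833). The score had a median of 5.73 in HT + Sham and 4.41 in HT + Stroke, so the parts of score and stroke cannot be told apart here either.

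Infused stroke mice were last set against the mice with neither insult, HT + Stroke vs NT + Sham. The 4 called members of 6 tested stood against 14.7% of 16749 genes. Agt rose by 0.61 (SE 0.19, adjusted *P* = 0.0410) and Ace by 0.53 (SE 0.10, adjusted *P* = 0.00960). Mas1 had −0.41 (SE 0.11, adjusted *P* = 0.0205) and Atp6ap2 −0.28 (SE 0.07, adjusted *P* = 0.0146), both lower. Ace and Atp6ap2 did not overlap between the groups, though the share of all genes without overlap was not counted. Agtr1a (−0.35, adjusted *P* = 0.521) and Lnpep (−0.19, adjusted *P* = 0.226) were not called. The Agt call was lost without the count filter (adjusted *P* = 0.0756), in both limma fits (0.0613 and 0.0636) and in 1 fit of all 24 libraries (0.0856). With libraries left out in turn its adjusted *P* ran from 0.0109 to 0.105, and it was lost in 9 of 12 cases. The Mas1 call was lost without NT + Sham library 1 (adjusted *P* = 0.0515). Without HT + Stroke libraries 1 and 6 the same 4 members were called, with Agt at 0.83 and Ace at 0.60, and 3544 of 17168 genes were called. Those libraries were left out for marker scores that differ between stroke and sham. The calls without them are therefore not independent of the comparison and do not restore the Agt call. This comparison shares the NT + Sham libraries with NT + Stroke vs NT + Sham.

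The wider pathway was taken as 39 genes in 4 lists, the peptidases that make and break angiotensins, the kinin partners, the mineralocorticoid arm and the receptor partners. The infusion gave 0 calls among 27 of them tested in sham mice, 28 in stroke mice and 29 over both surgeries. Over both surgeries the 3 with the smallest *P* were Arrb1, a beta-arrestin, at 0.09, Mtus1, which binds the type 2 receptor, at −0.09, and Arap1, a membrane traffic protein, at 0.17, each with an adjusted *P* of 0.924. Agtrap, named after its values were seen, encodes a protein that binds the type 1 receptor and promotes its uptake. It had 0.35 (adjusted *P* = 0.435) in sham mice, −0.20 (adjusted *P* = 0.721) in stroke mice and 0.07 over both surgeries, with an interaction of −0.54 (adjusted *P* = 0.382).

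The same lists were compared after stroke. In NT + Stroke vs NT + Sham 10 of 28 tested genes rose and 3 fell, against 25.9% of all genes called in either direction. The members of the list named next were chosen after their values were seen. The peptidase genes Anpep (1.82), Enpep (0.46), Prcp (0.52), Ctsa (0.47) and Ctsd (1.26) rose, and so did the receptor partners Agtrap (0.86) and Arap1 (0.90), all as log2 fold changes. Enpep encodes aminopeptidase A and Anpep aminopeptidase N, which shorten angiotensin II and III in turn. The signalling genes Gnaq (−0.25), Plcb1 (−0.22) and Grk2 (−0.26) fell. In HT + Stroke vs HT + Sham 0 of 27 were called, against 0.645% of all genes. In HT + Stroke vs NT + Sham 6 of 27 rose and 0 fell, against 14.7% of all genes.

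Chymase, a protease of mast cells, can also make angiotensin II. Mcpt4, a gene of this kind, had 15 counts over NT + Sham, 46 over HT + Sham, 145 over NT + Stroke and 77 over HT + Stroke. It is 1 of the 10 genes that rose in NT + Stroke vs NT + Sham, and it passed the count filter there through NT + Stroke. Cma1, which encodes a mast cell protease of the chymase family, had 1 count over NT + Sham, 21 over HT + Sham, 94 over NT + Stroke and 46 over HT + Stroke. Both genes were under the filter in HT + Sham vs NT + Sham and were not tested there. In HT + Sham the CPM of Cma1 had a median of 0.137 and a highest value of 0.678. Over both surgeries the infusion estimates by edgeR were −0.05 for Cma1 (adjusted *P* = 0.993) and 0.01 for Mcpt4 (adjusted *P* = 0.997). Mcpt4 was at −0.85 in stroke mice (adjusted *P* = 0.660). The interactions were −4.71 for Cma1 (adjusted *P* = 0.318) and −2.52 for Mcpt4 (adjusted *P* = 0.409). Both genes were named after their values were seen.

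Within groups, each abundant member followed different genes over the 24 libraries once group means were subtracted. Among 15492 genes, Agt was most like Csk (Pearson *r* = 0.857), Matn4 (0.851) and Vtn (0.826). Ace was most like Fam129b (0.865), Gas6 (0.842) and Pnpla2 (0.839). Mas1 was most like Rtn1 (0.828), Map3k5 (0.816) and Mapk10 (0.815). Atp6ap2 was most like Opcml (0.927), Nap1l5 (0.929) and Snap25 (0.919), of which Snap25 encodes a protein of synaptic vesicle fusion. Lnpep was most like Ranbp2 (0.957), Pdha1 (0.948) and Cbx3 (0.943). These values are across libraries that share their processing and depth scaling, are the highest of many, and carry no test.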

How the data were processed

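Poly(A) RNA-seq was available for 24 libraries in 4 groups of 6, deposited as 4 tables of a pair of groups each and joined here by gene identifier. GEO lists 1 sample per group, and the numbered columns were matched to groups by name. The authors assigned reads to genes of the Ensembl mouse annotation. The submitters' processing notes name featureCounts 1.5.0-p3 and DESeq2 1.20.0; the aligner and the strand setting are not given in the sources used here. The deposited values used were raw counts and FPKM; 3766 genes missing from a table were set to a count of 0. The 48 normalized columns, the group means and the columns of the authors' own fold changes and p-values were not used. Repeat columns of a library in more than 1 table were compared, and 0 of 48 differed.

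Counts were tested with edgeR 4.0.16 (quasi-likelihood, TMM, filterByExpr with a minimum count of 10 and a total of 15) in R 4.3.3, on the libraries of each comparison, and the Benjamini-Hochberg correction covered every gene in the fit (threshold 0.05). The infusion over both surgeries and the interaction used all 24 libraries. Members under the filter were compared by two-sided exact permutation tests of CPM. The count fits were tested on simulated data. Depth was 15922919 to 24865998 counts per library, and a floor of 3 counts was taken as the limit of detection; floors and counts cover counting error only. Alternatives were DESeq2 1.42.0, library size scaling without TMM, no count filter, 1 fit of all libraries, limma 3.58.1 on log2(FPKM + 0.1) and log2(FPKM + 1), and each library left out in turn. A fit with the olfactory bulb score, a fit without 3 libraries that stand apart, and other tests of members under the filter were added after the data were seen.

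The members, the pathway lists, the marker lists and the tests were chosen with earlier results of these data known. The text names all 9 members, pathway genes that pass in an infusion comparison or else the 3 with the smallest *P* over both surgeries, those that pass in both stroke comparisons, and the 3 genes most like each member with a mean CPM of at least 1; other genes are said to be chosen after their values were seen. Marker scores used genes with a mean CPM of at least 0.5.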

Additional observations from a re-analysis of the deposited data

Results flagged for a closer look

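Of the 32 groups of 6 libraries checked, 1 held a library far from the others. Lnpep in NT + Sham library 4 had a CPM of 75.7, with a gap to the nearest library of 0.702 of the group's range. Chance alone marks about 1 in 20 such groups. Without that library the Lnpep log2 fold change in HT + Sham vs NT + Sham was 0.0232.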

How the results depend on the processing

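The infusion gave 0 called members under every alternative run, and the fold changes of the members kept their direction and their side of the threshold in 648 of 693 values with a library left out and in 306 of 330 values under the other alternatives. The interaction called 22 genes by DESeq2. HT + Stroke vs HT + Sham called 905 genes by DESeq2, 67 with library size only, 179 with all genes with a count, 68 by limma on log2(FPKM + 1), 1125 in 1 fit of all libraries, 615 with the olfactory bulb score and 1437 without the 3 libraries that stand apart, and 9 (without HT + Sham library 3) to 533 (without HT + Stroke library 1) with a library left out. It called 1 member, Ace, by DESeq2, with all genes, in 1 fit, with the score and without the 3 libraries, and 0 to 1 with a library left out. HT + Stroke vs NT + Sham called 1357 to 2966 genes and 2 to 4 members with a library left out. Signs turned only for fold changes whose adjusted *P* was above 0.05. With the olfactory bulb score, in HT + Sham vs NT + Sham these were Agt (−0.0443), Ace (−0.0988) and Mas1 (0.0594), in HT + Stroke vs NT + Stroke Agt (0.00116) and Mas1 (−0.105), and in the interaction Agtr1a (−0.0331) and Mas1 (−0.0773). With library size only, Ace (−0.0207) and Mas1 (−0.0187) turned in HT + Stroke vs NT + Stroke and Ace (−0.0601) in the interaction. Limma on log2(FPKM + 0.1) turned Agtr1a (0.0245) in HT + Stroke vs NT + Stroke. Without the 3 libraries, Ace (−0.0156) turned in HT + Sham vs NT + Sham, Agtr1a (0.0546) and Mas1 (−0.0660) in HT + Stroke vs NT + Stroke, and Atp6ap2 (−0.0053) in the interaction. With a library left out, Agt ran from −0.111 to 0.210 in HT + Stroke vs HT + Sham. Ace ran from −0.0763 to 0.0627 in HT + Sham vs NT + Sham, from −0.0487 to 0.102 in HT + Stroke vs NT + Stroke, from −0.0181 to 0.0609 over both surgeries and from −0.0676 to 0.106 in the interaction. In HT + Stroke vs NT + Stroke, Agtr1a ran from −0.242 to 0.202 and Mas1 from −0.0280 to 0.0818. Lnpep ran from −0.0733 to 0.0232 in HT + Sham vs NT + Sham. The cause of these moves was not tested. No paired analysis was possible because the library numbers do not link libraries across groups. Depth limits Ren1, Agtr1b, Agtr2 and Agtr1a.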
